A study of Homo sapiens with 12 samples.

Results

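The genes described here are the nuclear-encoded subunits of the oxidative phosphorylation machinery, measured by RNA sequencing in U251 cells. They were chosen by name alone, as rows of the gene table whose symbol begins with *NDUFA*, *NDUFB*, *NDUFC*, *NDUFS* or *NDUFV* and a number, is *SDHA* to *SDHD*, or begins with *UQCR*, with *COX* and a number from 4 to 8, or with *ATP5*, leaving out symbols that mark pseudogenes. The rule found 86 of the 45416 genes in the table. There were 37 complex I, 4 complex II, 9 complex III, 17 complex IV and 19 complex V genes. Of these, 80 had enough reads to be tested, among 17989 tested genes in all.

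The cells were of the human glioblastoma line U251, labelled as wild type. They carried a control siRNA, siNC, or either of 2 siRNAs directed against *PD-L1*, named siPDL1-1 and siPDL1-2. From 48 h after transfection, interferon gamma (IFNγ) was given at 100 U/ml for 24 h, or the cells stayed unstimulated. Each of the 6 groups held 2 libraries, which per the study's methods came from independent experiments. All cells, controls included, had received an siRNA, and a knockdown of this kind lowers a transcript without removing its gene.

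Oxidative phosphorylation takes place in the inner mitochondrial membrane. Complexes I and II take electrons from NADH and succinate, complexes III and IV pass them on to oxygen, complexes I, III and IV pump protons, and complex V (ATP synthase) uses the proton gradient to make ATP. Most subunits are encoded in the nucleus, and the remaining 13, all in complexes I, III, IV and V, are encoded in mitochondrial DNA. NRF1, GABPA (an ETS factor, also called NRF2) and YY1 are transcription factors known for binding promoters of nuclear subunit genes.

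Promoter sequence was examined for motifs of these factors and for an interferon-response motif, in windows from 250 bases before to 50 bases after the RefSeq gene start (GRCh38.p14). A window was found for 69 of the 86 subunit genes, 66 of them tested. Searched on both strands were the NRF1 palindrome (the capitals of the NRF1 sites printed here), CCGGAAGT (ETS), AANATGGCG (YY1) and the interferon-stimulated response element, ISRE (GAAA, any 2 bases, GAAA). The YY1 letters were in 25.8% of the 66 windows and in 5.83% of the windows of 12680 tested genes. The ETS letters were in 16.7% against 7.55%, the NRF1 letters in 6.06% against 2.03%, and the ISRE letters in 0% against 3.06%. Among all 35116 windows the shares were 3.19% (YY1), 4.14% (ETS), 1.24% (NRF1) and 3.57% (ISRE). The RefSeq start lay within 100 bases of the start in the deposited table for 40 of the 66 genes, so the windows of the others may belong to another transcript. Sites from 6 genes described further on, whose starts did lie within that distance, are printed 5′ to 3′ on the gene's strand with the matched letters in capitals, to show what the motifs look like in this gene set.
NDUFA9 YY1 site, chr12:4649114-4649143 (+): attgtgggaaAAGATGGCGgctgccgcaca
NDUFS8 YY1 site, chr11:68030491-68030520 (+): tccccaaaccAACATGGCGgccccctacaa
ATP5F1C NRF1 site, chr10:7788145-7788174 (+): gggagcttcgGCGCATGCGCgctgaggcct
SDHD NRF1 site, chr11:112086753-112086782 (+): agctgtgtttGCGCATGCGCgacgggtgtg
SDHD ETS site, other strand, chr11:112086784-112086813 (+): accgcctctcgACTTCCGGttcacccagca
COX8A ETS site, other strand, chr11:63974590-63974619 (+): ccagctccagaACTTCCGGccagcgcagcc
COX5B ETS site, chr2:97646046-97646075 (+): gcagcttgttcCCGGAAGTtttgctgctag
A match is a string of letters and shows no binding.

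Each library held between 17101069 and 55657393 reads on genes. Levels are given in normalized CPM, that is, reads scaled to library size and then by a factor for each library. The summed values were therefore not equal. They ran from 0.965 (siPDL1-2 unstimulated replicate 1) to 1.042 (siNC IFNγ replicate 1) times the sum without that factor. In this ratio all unstimulated libraries lay below all stimulated ones. Of the glioma markers, *VIM* was abundant (3139 to 3968 CPM), and *NES*, *SOX2*, *CD44* and *FABP7* were present in every library. *GFAP* and *S100B* were low and *AQP4* was near 0. Of 10 markers of other cells, *CD3E* and *AIF1* had reads in 1 library each, and only *CD68* exceeded 5 CPM. The summed level of the 8 glioma markers was 4338 to 4410 CPM in unstimulated siNC and 3942 to 3970 CPM in IFNγ-stimulated siPDL1-1 libraries. The 10 other markers summed to 33.6 to 35.0 and 78.1 to 84.1 CPM in these 2 groups. Most of that was *CD68*, at 28.2 and 28.6 CPM in the first group and 74.6 and 80.2 CPM in the second. *CD274*, the gene of PD-L1, was at 4.60 and 4.91 CPM in unstimulated siNC, 2.67 and 2.73 in siPDL1-1, and 3.57 and 3.45 in siPDL1-2 libraries. After IFNγ it was at 71.2 and 76.0 CPM in siNC, 60.9 and 66.7 in siPDL1-1, and 37.5 and 35.0 in siPDL1-2 libraries. All siPDL1 libraries thus lay below their controls, and after IFNγ the level fell by 1.00 on the log2 scale with siPDL1-2 (FDR 4.27e-07), and the difference with siPDL1-1 was -0.20 (FDR 0.0498, not called).

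The tested subunit genes were abundant, short transcripts. Their median level was 100.2 CPM and that of all tested genes 16.2 CPM, and the median length of their reference transcript was 760.5 bases against 2887 bases. Levels are compared between genes per kilobase of that transcript. *UQCRH*, the complex III hinge protein, was highest at 590 CPM per kb, followed by *COX6B1* (547), *NDUFA13* (488), *COX6A1* (456) and the catalytic ATP synthase beta subunit *ATP5F1B* (412). The 2 lowest tested genes were *COX6B2* (1.70 CPM per kb) and *UQCRHL*, a near-copy of *UQCRH* (1.08 CPM per kb and 0.0979 to 0.539 CPM, where reads could be assigned to either gene).

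Where complex IV has alternative subunits, the ubiquitous form carried the reads. *COX4I1*, the regulatory subunit 4 used in most tissues, lay between 222.7 and 250.5 CPM, while its hypoxia- and lung-linked alternative *COX4I2* had 1 read over all 12 libraries. *COX6A1* (223.6 to 264.9 CPM), *COX7A2* (159.2 to 186.8 CPM), *COX7B* (113.0 to 135.0 CPM) and *COX8A* (164.6 to 212.1 CPM) stood beside the muscle-type *COX6A2* (2 reads in all), *COX7A1* (1 read), the testis-linked *COX7B2* (1 read) and *COX8C* (10 reads). *COX7A2L*, which takes part in joining complexes III and IV into supercomplexes, was at 111.2 to 132.0 CPM. *COX6B1* (245.4 to 287.9 CPM) was accompanied by measurable *COX6B2*, a form best known from testis, at 1.71 to 4.20 CPM. Of the 3 genes for the identical ATP synthase c subunit, *ATP5MC2* was highest at 219 CPM per kb, before *ATP5MC1* (80.8) and *ATP5MC3* (49.9). *ATP5MGL* had 4 reads in all. *NDUFA4*, whose product is now assigned to complex IV but which is counted here with complex I by its symbol, was at 120.6 to 136.6 CPM, its paralogue *NDUFA4L2* at 4.17 to 9.66 CPM, and *C15orf48*, whose product can replace NDUFA4 in inflamed cells, at 0 to 0.0586 CPM. *NDUFA4* was called in none of the 11 comparisons.

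Most subunit genes varied little. The highest library was below 1.3 times the lowest for 58 of the 80 tested genes and below 1.5 times for 71, and 3 genes (*COX6B2*, *NDUFA5* and *UQCRHL*) reached 2 times. Genes were called at an FDR below 0.01 in limma over all 17989 genes, on log2 of CPM plus 1, and 45 of the 80 (56.2%) were called in at least 1 of 11 comparisons, as were 58.7% of all tested genes. For up to 5 called genes per direction and comparison, the call was also tried under every alternative, which include leaving out each library in turn, and a change described as held was called under all of them.

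**Figure D1:**
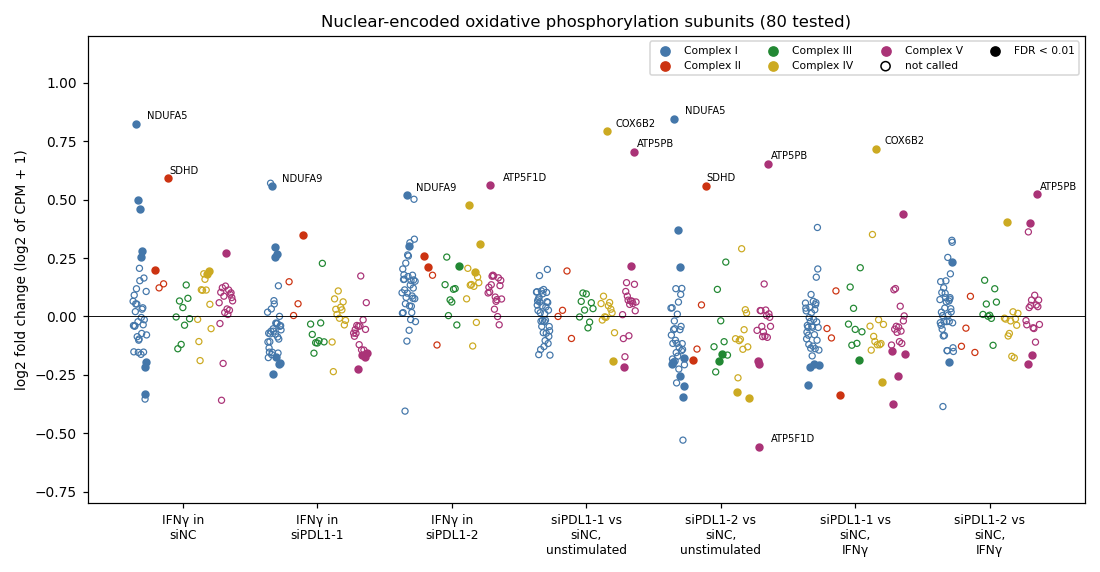
Log2 fold change (log2 of CPM plus 1) of each of the 80 tested subunit genes in 7 comparisons, grouped and coloured by complex; filled points passed an FDR below 0.01 and open points did not. The labelled points are called genes beyond 0.5, such as *ATP5PB* with both siRNAs and *NDUFA9* after IFNγ.

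The effect of IFNγ was taken within each siRNA group, so the 3 comparisons share no libraries. In siNC cells, 10 subunit genes rose and 3 fell (27.2% of all tested genes were called, 17.9% higher and 9.33% lower). In siPDL1-1 cells 5 rose and 8 fell (22.9%, with 14.4% higher and 8.49% lower), and in siPDL1-2 cells 9 rose and none fell (17.1%, with 9.57% higher and 7.55% lower). The shares of called subunit genes were 16.2%, 16.2% and 11.2%, below the share of all tested genes in each comparison. The median log2 fold change of the subunit genes was 0.05 in siNC, -0.05 in siPDL1-1 and 0.13 in siPDL1-2 cells, with medians of all genes between -0.02 and 0.00. A fold over 1.5 as well was reached by 2 genes in siNC, *NDUFA5* and *SDHD*, and by 0 with either *PD-L1* siRNA (8.12%, 6.87% and 5.26% of all genes). Leaving out each library in turn gave 4 to 15 called subunit genes in siNC, 3 to 16 in siPDL1-1 and 2 to 21 in siPDL1-2. The count was 4 without siNC unstimulated replicate 2 or siNC IFNγ replicate 2 and 5 without siNC unstimulated replicate 1, 3 without either unstimulated siPDL1-1 library, and 2 without siPDL1-2 IFNγ replicate 2, and it was 21 in siPDL1-2 cells without either siPDL1-1 IFNγ library.

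*NDUFA9*, an accessory subunit of the matrix arm of complex I near the quinone site, was the only subunit gene called in all 3 comparisons. It was at 58.7 and 55.4 CPM in unstimulated and 79.9 and 82.2 CPM in stimulated siNC cells, 55.6 and 56.9 against 83.5 and 83.0 CPM in siPDL1-1 cells, and 55.6 and 50.7 against 73.0 and 80.2 CPM in siPDL1-2 cells. The 6 stimulated libraries all lay above the 6 unstimulated ones. The log2 fold changes were 0.50 ± 0.06 (SE, FDR 7.54e-06), 0.56 ± 0.06 (FDR 2.68e-06) and 0.52 ± 0.06 (FDR 8.04e-06), and all 3 held. Among all tested genes, 843 (4.69%) rose in all 3 comparisons. The *NDUFA9* locus (chr12:4649095-4694317, + strand) contains sequence annotated to *AC005833.1* on the same strand, at 22.9% of its mean CPM, whose log2 change was 0.09 in siNC, 0.32 in siPDL1-1 and 0.69 in siPDL1-2 cells, so that reads could be exchanged between the 2 genes. The difference between the siRNAs in the *NDUFA9* response was 0.06 (95% confidence interval -0.12 to 0.23) for siPDL1-1 and 0.02 (-0.16 to 0.20) for siPDL1-2 against siNC.

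Complex II, the only complex without mitochondrially encoded subunits and also an enzyme of the citric acid cycle, had a higher summed level after IFNγ in each siRNA group. The 4 subunit genes summed to 491 and 498 CPM in unstimulated and 581 and 581 CPM in stimulated siNC cells, to 507 and 512 against 569 and 535 CPM in siPDL1-1 cells, and to 501 and 499 against 551 and 561 CPM in siPDL1-2 cells. No stimulated library overlapped with an unstimulated one. In siPDL1-2 cells the sums of the other 4 complexes were higher after IFNγ as well, and in siNC and siPDL1-1 cells the change of complex II was larger than theirs. The genes behind the sum differed between groups. *SDHD*, a membrane anchor of complex II, was at 75.4 and 69.0 CPM in unstimulated and 107 and 111 CPM in stimulated siNC cells, 66.5 and 68.6 against 84.4 and 88.2 CPM in siPDL1-1 cells, and 105 and 108 against 100.4 and 95.9 CPM in siPDL1-2 cells. It rose in siNC (0.59 ± 0.05, FDR 3.54e-07) and siPDL1-1 cells (0.35 ± 0.05, FDR 8.73e-05), where both calls held, and changed by -0.12 (FDR 0.0907) in siPDL1-2 cells. *SDHA*, the flavoprotein that oxidizes succinate, rose in siNC (0.20, FDR 0.00495) and siPDL1-2 cells (0.26, FDR 0.00135) and changed by 0.15 (FDR 0.0313) in siPDL1-1 cells. *SDHB*, the iron-sulfur subunit, rose in siPDL1-2 cells (0.21, FDR 0.00334), with changes of 0.12 and 0.00 in siNC and siPDL1-1. *SDHC*, the other anchor, was not called, at 0.14, 0.05 and 0.18.

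Of the complex I genes, those that rose after IFNγ in siNC cells were *NDUFA5* (0.83 ± 0.15, FDR 0.00181), *NDUFA9*, *NDUFB5* (0.46, held), *NDUFC2* (0.28) and *NDUFB6* (0.25), and those that fell were *NDUFS8* (-0.33), *NDUFS6* (-0.22) and *NDUFV1* (-0.20). NDUFV1 and NDUFS8 are core subunits of the electron path, and the other genes named here encode accessory subunits. In siPDL1-1 cells *NDUFB5* (0.30), *NDUFC2* (0.27) and *NDUFB6* (0.25) rose, and *NDUFB10* (-0.25), *NDUFS6* (-0.20), *NDUFV1* (-0.20) and *NDUFB9* (-0.17) fell. *NDUFA5* changed by 0.57 in siPDL1-1 and by -0.40 in siPDL1-2 cells, and neither change was called. In siPDL1-2 cells *NDUFB4* rose (0.30, held) beside *NDUFA9*. *COX8A* (0.31), *COX5B* (0.48) and *ATP5F1D*, the delta subunit of the ATP synthase rotor (0.56 ± 0.10, FDR 0.00126), rose in siPDL1-2 cells, *ATP5IF1*, the inhibitor that blocks ATP hydrolysis by complex V, fell in siPDL1-1 cells (-0.23, FDR 0.00975) with *ATP5PB* (-0.17), *ATP5MF* (-0.17) and *ATP5PO* (-0.16), and *ATP5MD* (0.27), *COX7B* (0.19) and *COX7A2L* (0.18) rose in siNC cells. No complex III gene was called in siNC or siPDL1-1 cells, and *UQCRQ* rose in siPDL1-2 cells (0.22). The *ATP5F1D* call was lost without siPDL1-2 unstimulated replicate 1 or either siPDL1-2 IFNγ library, that of *COX5B* without either siPDL1-2 unstimulated library or siPDL1-2 IFNγ replicate 2, that of *NDUFA5* in siNC cells without either siNC unstimulated library or siNC IFNγ replicate 2, and that of *NDUFS8* under most alternatives. When a trend on transcript length and GC content was removed from each library, the changes in siNC cells became 0.33 for *NDUFA5*, 0.31 for *SDHD*, 0.19 for *NDUFB5* and -0.19 for *NDUFS8*, all still called, and 0.04 for *NDUFB6* and -0.00 for *COX7B*, no longer called. That of *COX7A2L* turned from 0.18 to -0.14 (FDR 0.0058). In siPDL1-1 cells *SDHD* became 0.15 (still called) and *NDUFB5* 0.10 (not called), and in siPDL1-2 cells *ATP5F1D* became 0.16 (not called).

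**Figure D2:**
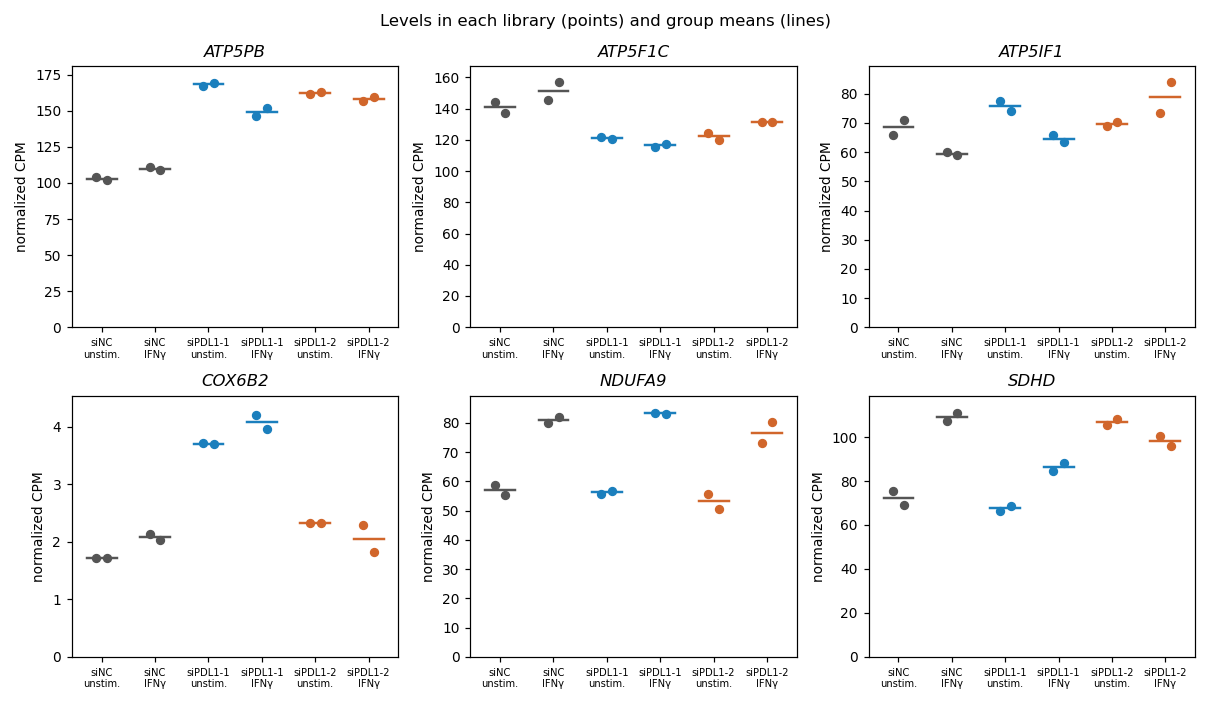
Normalized CPM of 6 subunit genes in each of the 12 libraries (points) with group means (lines), on linear axes from 0, for siNC (grey), siPDL1-1 (blue) and siPDL1-2 (orange). *ATP5PB* lies at 102 to 111 CPM in all siNC and 147 to 169 CPM in all *PD-L1* siRNA libraries, and *NDUFA9* separates stimulated from unstimulated libraries in every siRNA group.

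The effect of each *PD-L1* siRNA was compared with siNC in unstimulated and in IFNγ-stimulated cells. The comparisons of siPDL1-1 and siPDL1-2 share their siNC libraries, so each is given with its own values. In unstimulated cells siPDL1-1 raised 3 subunit genes and lowered 2 (18.8% of all tested genes were called, 9.80% higher and 8.98% lower), and siPDL1-2 raised 5 and lowered 14 (28.4%, with 16.5% higher and 11.9% lower). After IFNγ, siPDL1-1 raised 2 and lowered 11 (23.8%, with 11.6% higher and 12.2% lower), and siPDL1-2 raised 4 and lowered 3 (18.3%, with 8.60% higher and 9.74% lower). The median log2 fold changes were 0.03, -0.09, -0.05 and 0.01 in this order, and the medians of all tested genes 0.02, 0.03, -0.01 and -0.01. A fold over 1.5 as well was reached by 2, 2, 1 and 0 subunit genes (4.00%, 6.17%, 5.47% and 3.12% of all genes). Leaving out each library in turn gave 2 to 7, 7 to 22, 7 to 14 and 2 to 9 called subunit genes. The lowest counts came without siNC unstimulated replicate 1 or siPDL1-1 unstimulated replicate 1 (2), without siPDL1-2 unstimulated replicate 2 (7), without siNC IFNγ replicate 2 (7), and without siNC IFNγ replicate 2 or siPDL1-2 IFNγ replicate 2 (2).

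*ATP5PB*, the b subunit of the peripheral stalk that holds the catalytic head of ATP synthase in place, was higher with both siRNAs in both states. It was at 104 and 102 CPM in unstimulated siNC, 168 and 169 in siPDL1-1, and 162 and 163 in siPDL1-2 libraries. After IFNγ it was at 111 and 109 CPM in siNC, 147 and 152 in siPDL1-1, and 157 and 160 in siPDL1-2 libraries. No *PD-L1* siRNA library overlapped with an siNC library. The log2 fold changes against siNC were 0.70 ± 0.04 (FDR 1.19e-08) for siPDL1-1 and 0.65 ± 0.04 (FDR 2.01e-08) for siPDL1-2 in unstimulated cells, and 0.44 ± 0.04 (FDR 7.25e-07) and 0.52 ± 0.04 (FDR 4.03e-07) after IFNγ, and all 4 held. The 2 siRNAs differed by 0.05 (95% confidence interval -0.03 to 0.14, FDR 0.336) in unstimulated cells and by -0.08 (-0.17 to -0.000404, FDR 0.156) after IFNγ. IFNγ lowered *ATP5PB* in siPDL1-1 cells (-0.17, FDR 0.00331), with 0.10 in siNC and -0.04 in siPDL1-2 cells. The gene (chr1:111448864-111462773, + strand) overlaps *WDR77* on the opposite strand, which the authors' counting on both strands could not separate. *WDR77* was at 26.7% of the mean CPM of *ATP5PB*, and its log2 changes in the same 4 comparisons were -0.30, -0.46, -0.20 and -0.24.

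The gamma subunit gene *ATP5F1C*, part of the rotor that turns inside the catalytic head, was lower in the same 4 comparisons. It was at 144 and 137 CPM in unstimulated siNC, 122 and 121 in siPDL1-1, and 125 and 120 in siPDL1-2 libraries. After IFNγ it was at 146 and 157 CPM in siNC, 115 and 118 in siPDL1-1, and 131 and 132 in siPDL1-2 libraries. The groups did not overlap, and the log2 fold changes were -0.22 ± 0.05 (FDR 0.00251), -0.20 ± 0.05 (FDR 0.0025), -0.37 ± 0.05 (FDR 1.69e-05, held) and -0.20 ± 0.05 (FDR 0.00395). The last was lost when siNC IFNγ replicate 2 or either siPDL1-2 IFNγ library was left out, and the first without siNC unstimulated replicate 1 or either siPDL1-1 library. Of the 18 tested ATP synthase genes, siPDL1-1 and siPDL1-2 gave 3 and 4 calls against siNC in unstimulated cells, and 5 and 4 after IFNγ. These counts include *ATP5PB* and *ATP5F1C*. The shares of all tested genes called were 18.8%, 28.4%, 23.8% and 18.3% in the same order. *ATP5F1B* fell with siPDL1-2 in unstimulated (-0.19, FDR 0.000721) and with siPDL1-1 in stimulated cells (-0.15, FDR 0.00503), *ATP5MC3* fell after IFNγ with siPDL1-1 (-0.25) and siPDL1-2 (-0.16, lost under most alternatives), and *ATP5MF* rose with siPDL1-1 in unstimulated cells (0.22, FDR 0.00181). *ATP5F1A*, *ATP5F1E*, *ATP5MC1*, *ATP5MC2*, *ATP5PD* and *ATP5PF* were called in none of the 11 comparisons.

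*COX6B2* differed between the siRNAs. It was at 1.71 and 1.72 CPM in unstimulated siNC, 3.71 and 3.70 in siPDL1-1, and 2.32 and 2.32 in siPDL1-2 libraries. After IFNγ it was at 2.13 and 2.03 CPM in siNC, 4.20 and 3.95 in siPDL1-1, and 2.29 and 1.82 in siPDL1-2 libraries. The 4 siPDL1-1 libraries lay above the other 8. Between 35 and 157 reads per library stand behind these values. The log2 fold changes of siPDL1-1 were 0.79 ± 0.11 (FDR 8.60e-05) and 0.72 ± 0.11 (FDR 0.000154) and both held, while those of siPDL1-2 were 0.29 (FDR 0.0519) and -0.02 (FDR 0.925). Tested directly, siPDL1-1 was above siPDL1-2 by 0.50 ± 0.11 (FDR 0.00285, lost without any 1 of the 4 libraries compared) in unstimulated and by 0.74 ± 0.11 (FDR 0.000295, held) in stimulated cells. Since 1 CPM was added before the logarithm, these differences understate the change of so low a gene.

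Further genes that fell with siPDL1-1 after IFNγ were *SDHD* (-0.34, held), *NDUFA3* (-0.29, held) and *COX7C* (-0.28, held), the last also in unstimulated cells (-0.19, FDR 0.00195). *COX7C*, a small subunit of complex IV, was at 248 and 238 CPM in unstimulated siNC and 214 and 212 in siPDL1-1 libraries, and at 247 and 257 against 211 and 204 CPM after IFNγ. With siPDL1-2 in unstimulated cells, *NDUFA5* (0.84 ± 0.15, FDR 0.00155, lost without any 1 of the 4 libraries compared), *SDHD* (0.56, held), *NDUFB5* (0.37, held) and *NDUFC2* (0.21) rose beside *ATP5PB*. The largest falls among called genes were those of *ATP5F1D* (-0.56 ± 0.10, FDR 0.000774, held), *COX8A* (-0.35, held), *NDUFS8* (-0.34), *COX5A* (-0.32) and *NDUFV1* (-0.30, held). With the length and GC trend removed these became 0.37 for *NDUFA5*, 0.38 for *SDHD*, 0.15 for *NDUFB5*, -0.34 for *ATP5F1D* and -0.22 for *NDUFS8*, all still called. After IFNγ, siPDL1-2 raised *COX5B* (0.40, FDR 0.00726, lost under most alternatives), *ATP5IF1* and *NDUFS6* (0.23). *ATP5IF1* was at 59.9 and 58.9 CPM in siNC and 73.5 and 84.1 CPM in siPDL1-2 libraries (0.40 ± 0.06, FDR 0.000219, held). *NDUFB9* was lower with both siRNAs after IFNγ (-0.20 and -0.20) and with siPDL1-2 in unstimulated cells (-0.26), and overlaps *TATDN1*, at 29.6% of its mean CPM, on the opposite strand.

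Compared with each other, siPDL1-1 cells had 15 subunit genes higher and 4 lower than siPDL1-2 cells when unstimulated (24.1% of all tested genes, 9.89% higher and 14.2% lower), and 1 higher and 6 lower after IFNγ (10.5%, with 5.94% higher and 4.52% lower). A fold over 1.5 as well was reached by 2 and 1 of them (4.35% and 2.23% of all genes). The median difference was 0.11 in unstimulated and -0.06 in stimulated cells. Between these siRNAs the order thus changed with stimulation for the set as a whole, as a description of medians that were not tested. In unstimulated cells the lower genes were *NDUFA5* (-0.67), *SDHD* (-0.65, held), *NDUFB5* (-0.26) and *NDUFS1* (-0.17), and the higher ones were led by *COX6B2* (0.50), *ATP5F1D* (0.39), *NDUFB11* (0.33), *COX5A* (0.31) and *COX8A* (0.28). After IFNγ *NDUFS6* (-0.33, held), *ATP5IF1* (-0.28), *COX7C* (-0.24), *NDUFA3* (-0.24) and *NDUFB10* (-0.23) were lower with siPDL1-1, and *NDUFS1* also (-0.21). With the length and GC trend removed, *NDUFA5* (-0.18), *NDUFB5* (-0.02), *NDUFS1* (-0.01), *ATP5F1D* (0.03), *NDUFB11* (0.17) and *COX6B2* (0.38) were no longer called in unstimulated cells, and *SDHD* (-0.42) still was. Across the subunit genes, Spearman's rho between this difference and GC content was 0.65 before and -0.39 after the removal. The removal thus left an opposite relation in this set. Counts over libraries left out were 1 to 25 in unstimulated cells, lowest without either siPDL1-2 library (1) and 2 or 3 without an siPDL1-1 library, and 3 to 10 after IFNγ, lowest without siPDL1-2 IFNγ replicate 2.

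Whether the effect of an siRNA differed with IFNγ was tested as the difference of the 2 effects. For siPDL1-1 it was called for 0 of the 80 genes by limma, by edgeR and by DESeq2 (1.63% of all tested genes by limma), 16 had an unadjusted p under 0.05, and the lowest FDR was 0.0141, for *ATP5PB* (-0.27, 95% confidence interval -0.39 to -0.15). For siPDL1-2 it was called for 12 genes, 9 with a positive and 3 with a negative difference (17.0%, with 5.15% positive and 11.9% negative). Of these, 5 also exceeded a fold of 1.5 (7.62% of all genes), and for siPDL1-1 0 did (0.967%). A positive difference was found for *ATP5F1D* (0.92 ± 0.14, FDR 0.000592, held), *COX5B* (0.67), *NDUFS8* (0.66, held), *ATP5IF1* (0.37), *NDUFS6* (0.37), *COX8A* (0.36), *NDUFA11* (0.35), *NDUFS3* (0.33) and *NDUFV1* (0.27), and a negative one for *NDUFA5* (-1.23 ± 0.21, FDR 0.00235), *SDHD* (-0.71 ± 0.07, FDR 3.65e-05, held) and *NDUFB5* (-0.52). The count for siPDL1-2 was 4 without siNC unstimulated replicate 2, 5 without either siPDL1-2 unstimulated library or siPDL1-2 IFNγ replicate 2, and 6 without siNC IFNγ replicate 2. For siPDL1-1 it was 2 without siPDL1-1 IFNγ replicate 2.

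The libraries behind these differences move in opposite directions. *NDUFA5*, an accessory subunit of complex I, was at 23.5 and 23.0 CPM in unstimulated and 40.0 and 43.9 CPM in stimulated siNC cells, but at 42.1 and 42.9 against 33.3 and 30.5 CPM in siPDL1-2 cells. *ATP5F1D* was at 66.2 and 69.7 against 60.3 and 46.2 CPM in siNC cells, and at 45.0 and 46.7 against 66.9 and 69.4 CPM in siPDL1-2 cells. *NDUFS8* was at 81.0 and 79.2 against 70.6 and 57.0 CPM in siNC cells, and at 62.0 and 63.8 against 74.2 and 84.8 CPM in siPDL1-2 cells. The unstimulated siNC and stimulated siPDL1-2 libraries were on 1 side and the unstimulated siPDL1-2 and stimulated siNC libraries on the other for each of these 3 genes.

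This pattern moved with the base composition of the transcripts. Across the 80 subunit genes, Spearman's rho between the siPDL1-2 difference and the GC content of the reference transcript was 0.72, and across 17929 tested genes it was 0.70, with all values taken from the same libraries. *NDUFA5* has the lowest GC content of the tested subunit genes (34.6%) and *ATP5F1D* the highest (69.5%). Differences between the 2 replicates of 1 group also went with GC content among the subunit genes, to a degree that differed by group. In stimulated libraries rho was -0.66 for siNC, -0.54 for siPDL1-1 and 0.47 for siPDL1-2. In unstimulated libraries it was 0.37 for siNC, -0.03 for siPDL1-1 and 0.17 for siPDL1-2. After a smooth trend on transcript length and GC content had been removed from each library, rho across the subunit genes was -0.21. The trend was fitted on GC content itself, so the loss of the positive relation was built in and is no test of it. The differences of *NDUFA5* (-0.54, FDR 0.00256), *SDHD* (-0.42, FDR 4.28e-05), *ATP5F1D* (0.29, FDR 0.00759), *NDUFS8* (0.35, FDR 0.00167), *ATP5IF1* (0.30, FDR 0.00863) and *NDUFS3* (0.24, FDR 0.00665) were still called, at smaller size for all but the last 2 by over 1.5 times. Those of *COX5B* (0.60, FDR 0.0344), *NDUFB5* (-0.19, FDR 0.0281), *NDUFS6* (0.20), *COX8A* (0.19), *NDUFA11* (0.09) and *NDUFV1* (0.06) were not. The part of base composition in these differences was not tested. The changes of *ATP5PB* against siNC became 0.73, 0.43, 0.54 and 0.63 under the same removal, those of *NDUFA9* after IFNγ 0.38, 0.47 and 0.59, and those of *COX6B2* with siPDL1-1 0.75 and 0.65, all called.

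**Figure D3:**
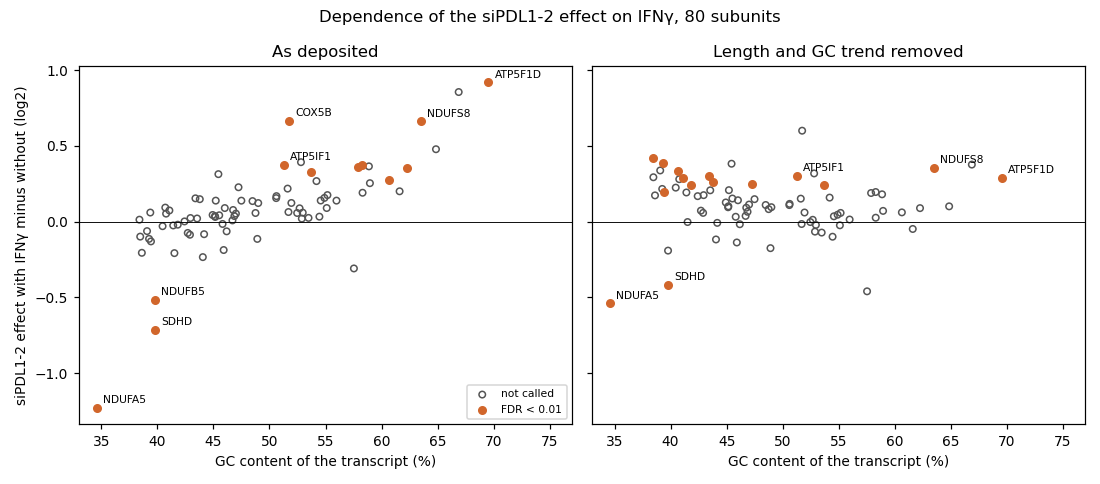
Difference between the siPDL1-2 effect with and without IFNγ (log2, y axis) against the GC content of the reference transcript (percent, x axis) for the 80 subunit genes, as deposited (left) and after removal of a length and GC trend from each library (right); filled points passed an FDR below 0.01. The points rise from *NDUFA5* to *ATP5F1D* on the left (rho 0.72). On the right they do not (rho -0.21), a loss built in by removing a trend fitted on GC content. *NDUFA5*, *SDHD* and *ATP5F1D* are still called there.

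The summed level of the nuclear subunits stayed near that of the controls. All 86 genes together came to 9635 and 9600 CPM in unstimulated siNC libraries, and the 12 libraries lay between 0.937 and 1.058 times the mean of these 2. The lowest were the unstimulated siPDL1-2 libraries (9068 and 9011 CPM), which lay below every other library also for complexes I, III and IV. Of 83 tested cytosolic ribosomal protein genes, another set of short and abundant transcripts, 60 fell with siPDL1-2 in unstimulated cells (median -0.18). With IFNγ, 33 of the 83 rose in siPDL1-2 cells (median 0.14). The shares of all tested genes were 11.9% and 9.57%. Against siNC after IFNγ, 43 fell with siPDL1-1 (median -0.15) and 19 with siPDL1-2 (median -0.10), beside 12.2% and 9.74% of all tested genes. With siPDL1-1 in unstimulated cells 4 fell (8.98%). IFNγ lowered 23 in siPDL1-1 cells (8.49%) and 1 in siNC cells (9.33%). At most 2 rose in any of these further comparisons. What the ribosomal and subunit sets share was not tested. The 13 mitochondrially encoded subunits came to 35825 and 37113 CPM in unstimulated siNC, 46109 and 46411 in siPDL1-1, and 48036 and 50127 in siPDL1-2 libraries. After IFNγ they came to 39460 and 40066 CPM in siNC, 46249 and 51204 in siPDL1-1, and 43649 and 41724 in siPDL1-2 libraries. Every *PD-L1* siRNA library was above every siNC library in this sum, whereas the nuclear sums overlapped.

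**Figure D4:**
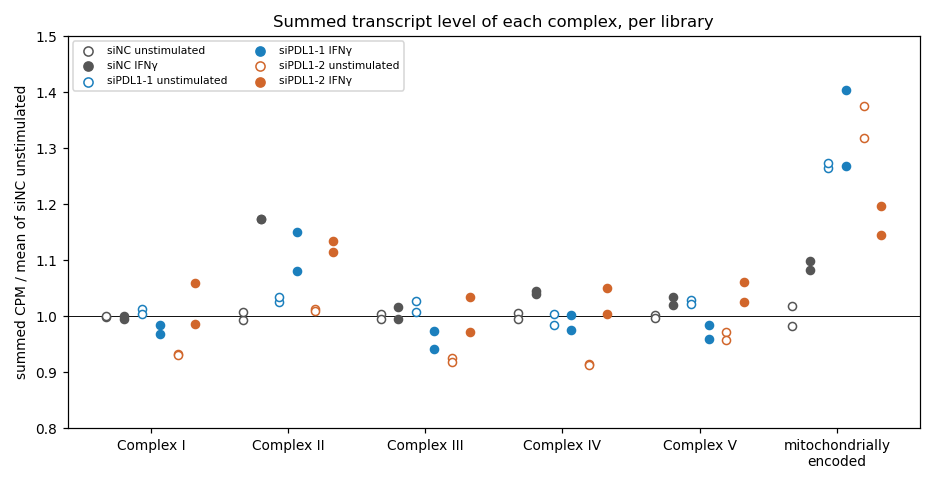
Summed normalized CPM of the genes of each complex and of the 13 mitochondrially encoded subunits in each library, divided by the mean of the 2 unstimulated siNC libraries (y axis, from 0.8); open points are unstimulated and filled points IFNγ-stimulated, coloured by siRNA. The nuclear complexes lie between 0.914 and 1.174, complex II is higher in the stimulated than in the unstimulated libraries of each siRNA, and the mitochondrially encoded sum reaches 1.404 with the *PD-L1* siRNAs.

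Gene by gene, 8 of the 13 mitochondrially encoded subunits rose with siPDL1-1 in unstimulated cells (median 0.32) and 11 with siPDL1-2 (median 0.42), none fell, and after IFNγ 7 (median 0.24) and 3 (median 0.10) rose. Of all tested genes, 9.80% and 16.5% rose in unstimulated and 11.6% and 8.60% in stimulated cells, in the same order. *MT-CYB*, the cytochrome b of complex III, was at 1085 and 885 CPM in unstimulated siNC, 1457 and 1533 in siPDL1-1, and 1713 and 1744 in siPDL1-2 libraries (0.61 ± 0.08, FDR 0.000223, and 0.82 ± 0.08, FDR 2.15e-05). After IFNγ it was still higher with both (0.67 and 0.53). *MT-ND3* of complex I rose with IFNγ in siNC (0.39) and siPDL1-1 cells (0.31) and fell in siPDL1-2 cells (-0.20), where 6 of the 13 fell (median -0.23). In siNC and siPDL1-1 cells IFNγ raised 1 each. Of all tested genes, IFNγ raised 17.9% and 14.4% in siNC and siPDL1-1 cells and lowered 7.55% in siPDL1-2 cells. siPDL1-1 was below siPDL1-2 for 4 of the 13 in unstimulated cells and above it for 2 after IFNγ. The siPDL1-2 effect differed with IFNγ for 6, all negative. The shares of all tested genes were 14.2%, 5.94% and 11.9% in the same order. Removing the length and GC trend left the medians against siNC at 0.34, 0.45, 0.38 and 0.19. It brought the IFNγ changes of *MT-ND3* to 0.16 in siNC and 0.20 in siPDL1-1 cells, both still called. Of the 6 differences with IFNγ, those of *MT-ND2* (FDR 0.115), *MT-CO2* (FDR 0.118) and *MT-ATP6* (FDR 0.0748) were then no longer called, and the median over the 13 went from -0.34 to -0.24. Reads from nuclear copies of mitochondrial DNA cannot be told apart from these transcripts, and a higher share of mitochondrial RNA per cell cannot be told apart from less nuclear-encoded RNA.

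Among proteins next to the complexes, cytochrome c (*CYCS*), which carries electrons from complex III to IV, was at 101 and 95.6 CPM in unstimulated and 172 and 181 CPM in stimulated siNC cells, and at 143 and 153 against 109 and 103 CPM in siPDL1-2 cells. It rose with IFNγ in siNC cells (0.84 ± 0.14, FDR 0.00215) and its siPDL1-2 effect differed with IFNγ by -1.32 ± 0.20 (FDR 0.00221). Both calls were lost with the length and GC trend removed (0.64, FDR 0.0104, and -1.06, FDR 0.0138). Of 12 subunits and electron carriers outside the naming rule, among them *CYCS*, *NDUFA4L2* and *C15orf48*, 11 were tested, and 3 rose and 1 fell with IFNγ in siNC, 1 and 2 in siPDL1-1, and 2 and 1 in siPDL1-2 cells. Against siNC, siPDL1-1 raised 1 and lowered 1 and siPDL1-2 raised 3 and lowered 3 in unstimulated cells, with 2 and 1 for each siRNA after IFNγ. Of all tested genes, 17.9%, 14.4% and 9.57% rose and 9.33%, 8.49% and 7.55% fell with IFNγ in siNC, siPDL1-1 and siPDL1-2 cells. Against siNC, siPDL1-1 raised 9.80% and lowered 8.98% of all tested genes in unstimulated cells, and 11.6% and 12.2% after IFNγ. The shares for siPDL1-2 were 16.5% and 11.9%, and 8.60% and 9.74%. *ETFDH*, which feeds electrons from fatty acid oxidation into the quinone pool, was higher with both siRNAs in unstimulated (0.42 and 0.67) and stimulated cells (0.28 and 0.45).

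Assembly factors moved gene by gene as well. IFNγ raised 2, 2 and 5 and lowered 0, 1 and 1 of the 18 complex I assembly factors in siNC, siPDL1-1 and siPDL1-2 cells. *NDUFAF4* rose in all 3 (0.68, 0.48 and 0.53) and was at 15.3 and 15.6 against 24.6 and 26.2 CPM in siNC cells, and *TMEM126B* rose in siNC (0.78) and siPDL1-1 cells (0.72). With the length and GC trend removed, *NDUFAF4* was at 0.26 and 0.16 in siNC and siPDL1-1 cells, no longer called, and at 0.64 in siPDL1-2 cells, and *TMEM126B* at 0.36 and 0.41, still called. Of 25 complex IV assembly factors 6, 4 and 5 rose and 0 fell. *SCO1*, a copper chaperone, rose in all 3 (0.25, 0.24 and 0.32, the first 2 no longer called with that trend removed), and *SCO2* too (0.81, 1.28 and 1.39), but *SCO2* shares 710 bases of its annotated span with *TYMP* on the same strand, which rose by 1.15, 1.90 and 1.53. Of 10 complex II and III assembly factors 1, 0 and 1 rose and 0, 2 and 1 fell, and of 5 ATP synthase assembly factors 1, 0 and 0 rose and none fell. Of all tested genes, 17.9%, 14.4% and 9.57% rose and 9.33%, 8.49% and 7.55% fell with IFNγ, in the same order. Against siNC, siPDL1-1 raised 0 and lowered 2 of the complex I factors in unstimulated cells and 0 and 5 after IFNγ, and siPDL1-2 raised 2 and lowered 3, and 1 and 2. For complex IV factors these counts were 0 and 0, 1 and 3, 3 and 2, and 0 and 1, for complex II and III factors 0 and 1, 0 and 1, 3 and 2, and 0 and 0, and for ATP synthase factors 0 and 0, 1 and 0, 1 and 0, and 1 and 0. The shares of all tested genes were 9.80% and 8.98%, 11.6% and 12.2%, 16.5% and 11.9%, and 8.60% and 9.74% in this order. *TMEM70*, an ATP synthase assembly factor, rose with siPDL1-2 in unstimulated (0.57) and with both siRNAs in stimulated cells (0.35 and 0.36).

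Of 15 regulators of mitochondrial biogenesis, siPDL1-1 lowered 3 and raised 0 in unstimulated cells and lowered 6 and raised 0 after IFNγ, and siPDL1-2 lowered 6 and raised 2, and lowered 1 and raised 0. Of all tested genes 8.98%, 12.2%, 11.9% and 9.74% were lower in these comparisons, in the same order. *MYC* was at 17.9 and 19.9 CPM in unstimulated siNC, 10.6 and 10.5 in siPDL1-1, and 8.65 and 7.72 in siPDL1-2 libraries. It was lower with siPDL1-1 and siPDL1-2 in unstimulated (-0.78 and -1.11) and in stimulated cells (-0.59 and -0.61). *NRF1* fell with siPDL1-1 (-0.39 and -0.36). *PPARGC1A*, the coactivator PGC-1α, fell with siPDL1-1 (-0.57 and -0.50). With IFNγ, 2 of the 15 rose and 4 fell in siNC, 1 and 1 in siPDL1-1 and 2 and 1 in siPDL1-2 cells. Of all tested genes, 17.9%, 14.4% and 9.57% rose and 9.33%, 8.49% and 7.55% fell, in the same order. *TFAM*, which packages and transcribes mitochondrial DNA, rose with IFNγ in siNC (0.46) and siPDL1-1 cells (0.42). *TFAM* was at 57.9 and 59.2 CPM in unstimulated siNC and 86.9 and 88.2 CPM in unstimulated siPDL1-2 libraries (0.57 ± 0.06), and its siPDL1-2 effect differed with IFNγ by -0.65. With the length and GC trend removed these 4 values of *TFAM* were 0.03, 0.08, 0.15 and -0.05, of which only the third was called.

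Citric acid cycle enzymes and carriers of adenine nucleotides and phosphate supply the complexes with NADH, succinate, ADP and phosphate. Of 16 cycle enzymes 3 rose and 1 fell with IFNγ in siNC, 2 and 1 in siPDL1-1, and 0 and 0 in siPDL1-2 cells. Against siNC, siPDL1-1 raised 3 and lowered 1 in unstimulated cells and 2 and 3 after IFNγ, and siPDL1-2 raised 6 and lowered 5, and 2 and 2. *DLST* and *OGDH*, parts of the same 2-oxoglutarate dehydrogenase complex, changed in opposite directions in all 4 comparisons. With siPDL1-1 and siPDL1-2, *DLST* changed by -0.29 and -0.41 in unstimulated and by -0.24 and -0.36 in stimulated cells. *OGDH* changed by 0.28 and 0.22, and by 0.34 and 0.27, in the same order. Of the 7 carriers and porins 0 rose and 3 fell with siPDL1-1 in unstimulated cells and 0 and 6 after IFNγ, with 0 and 5 and 1 and 2 for siPDL1-2, and IFNγ raised 1, 0 and 2 and lowered 2, 3 and 0 in siNC, siPDL1-1 and siPDL1-2 cells. Against siNC, the shares of all tested genes that rose and fell were 9.80% and 8.98%, 11.6% and 12.2%, 16.5% and 11.9%, and 8.60% and 9.74% in this order. With IFNγ, 17.9%, 14.4% and 9.57% of all tested genes rose and 9.33%, 8.49% and 7.55% fell. *SLC25A5*, the main adenine nucleotide carrier here, was at 867 and 832 CPM in unstimulated siNC, 738 and 733 in siPDL1-1, and 739 and 717 in siPDL1-2 libraries. It fell with siPDL1-1 and siPDL1-2 in unstimulated (-0.21 and -0.22) and in stimulated cells (-0.35 and -0.16).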

How the data were processed

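RNA sequencing of 12 U251 libraries was analyzed, grouped by the sample labels. Per the methods, trimming, alignment to GRCh38 (Ensembl, at most 10 hits a read) and counting, which ignored strand, were done by the authors in CLC Genomics Workbench. The deposited signal values are CPM as normalized by the authors, and 100% of them were whole multiples of 1 read (tolerance 0.01), from which reads were recovered. Genes were kept with filterByExpr (minimum count 10, minimum total count 15). All libraries were fitted as 6 groups with limma 3.58.1 (trend and robust, 6 residual degrees of freedom) after adding a pseudocount of 1 CPM and taking log2, and the Benjamini-Hochberg FDR was computed over all 17989 genes. Alternatives used edgeR 4.0.16, DESeq2 1.42.0, other scaling, filter and pseudocount (0.1), a replicate block, left-out libraries, fits of 1 stimulation state, and removal of a length and GC trend (mgcv 1.9.3, reference transcripts of GENCODE). The scripts were tested on simulated data. The labels name a stranded kit and the methods do not.

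The subunit genes and gene lists were chosen with earlier results of these data known. Named genes are up to 5 called genes per direction and comparison, the paralogue sets, the complex II genes, *NDUFA4*, *ATP5IF1*, *CD274*, and up to 3 called genes of each list. Values in other sentences were chosen after they were seen. Groups hold 2 libraries, so an FDR measures only the spread between these samples. Another call rule added a fold change over 1.5. Of the 86 genes, 50 overlap another annotated gene, 22 of them a gene at 10% or more of their mean CPM, and many have processed copies elsewhere, so that reads may be shared. A further motif that was searched is not reported here.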

Additional observations from a re-analysis of the deposited data

Results flagged for a closer look

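For 12 subunit genes the effect of siPDL1-2 against siNC differed between IFNγ-stimulated and unstimulated cells, by the test of the difference itself (limma, FDR below 0.01). The difference was positive, with a higher siPDL1-2 effect after IFNγ, for *ATP5F1D* (0.92), *COX5B* (0.67), *NDUFS8* (0.66), *ATP5IF1* (0.37), *NDUFS6* (0.37), *COX8A* (0.36), *NDUFA11* (0.35), *NDUFS3* (0.33) and *NDUFV1* (0.27) on the log2 scale. It was negative for *NDUFA5* (-1.23), *SDHD* (-0.71) and *NDUFB5* (-0.52). The FDR lay between 3.65e-05 (*SDHD*) and 0.00777 (*NDUFV1*). Across the 80 subunit genes the size of the difference followed the GC content of the transcript, with a Spearman's rho of 0.72 over genes measured in the same libraries. Groups of 2 libraries were too small to look for single libraries far from the others.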

How the results depend on the processing

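Counts are of called subunit genes, in the order IFNγ in siNC (13), in siPDL1-1 (13) and in siPDL1-2 cells (9), siPDL1-1 (5) and siPDL1-2 (19) against siNC unstimulated, the same after IFNγ (13 and 7), siPDL1-1 against siPDL1-2 unstimulated (19) and after IFNγ (7), and the dependence of the siPDL1-1 (0) and siPDL1-2 effects (12) on IFNγ. A fold over 1.5 as well left 2, 0, 0, 2, 2, 1, 0, 2, 1, 0 and 5. Without a filter on low reads the counts that moved by over 1.5 times were 6 (IFNγ in siNC), 6 (in siPDL1-1), 12 (siPDL1-2 against siNC, unstimulated), 3 (after IFNγ) and 8 (siPDL1-1 against siPDL1-2, unstimulated). With DESeq2 they were 17 (IFNγ in siPDL1-2), 30 (siPDL1-2 against siNC, unstimulated) and 22 (dependence of siPDL1-2). With the length and GC trend removed they were 20, 28 and 14 for IFNγ in siNC, siPDL1-1 and siPDL1-2, 17 and 31 for siPDL1-1 and siPDL1-2 against siNC unstimulated, and 12 for siPDL1-1 against siPDL1-2 after IFNγ. For siPDL1-1 against siNC unstimulated, rho of the subunit genes with GC content went from -0.20 to -0.45 on this removal. Fits of 1 stimulation state gave 14, 43 and 45 in unstimulated and 7, 2 and 2 in stimulated cells, for siPDL1-1 and siPDL1-2 against siNC and against each other. Leaving out each library in turn gave 4 to 15, 3 to 16, 2 to 21, 2 to 7, 7 to 22, 7 to 14, 2 to 9, 1 to 25, 3 to 10, 0 to 2 and 4 to 17. DESeq2 size factors, edgeR and the pseudocount of 0.1 changed no count by over 1.5 times. Apart from the fold rule, shares of all tested genes under the alternatives are not given. The counts alone therefore do not tell a shift of the subunit genes from a shift of all genes.

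The labels number the replicates 1 and 2 in each group. Over 15 pairs of groups the correlation of the replicate deviations ran from -0.13 to 0.19, 2 above 0.1 and 1 below -0.1. These values cannot decide whether samples with the same number share an experiment, which the labels do not say. With the replicate block the counts were 11, 10, 10, 5, 15, 12, 5, 17, 6, 0 and 12.

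Of 75 named gene and comparison pairs, 29 were called in the same direction under every alternative run. *COX7A2L* after IFNγ in siNC cells, which is not among them, went from 0.18 to -0.14 on removal of the length and GC trend. Among the lost calls, 23 were lost on removal of the length and GC trend, 21 without the filter on low reads and 7 with the block. Fits of 1 stimulation state lost 9 and kept 35. DESeq2 size factors lost 4, the DESeq2 test 4 and edgeR 3. Calls were also lost when single libraries were left out. With 2 libraries per group, the median 95% half-width was 0.11 on the log2 scale, and 0.16 for the dependence on IFNγ. Larger differences also went uncalled at an FDR below 0.01. After IFNγ these included 0.57 for *NDUFA5* and 0.15 for *SDHA* in siPDL1-1 cells, and -0.36 for *ATP5F1D* in siNC cells. The CPM hold no external standard, so a change of all transcripts alike was not detectable.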
